A study of Mus musculus with 5 samples.

Results

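A set of 8 genes whose products build the sperm head and tail was followed across the series: the protamine genes Prm1 and Prm2, the transition protein genes Tnp1 and Tnp2, the acrosome genes Acr, Acrv1 and Spaca1, and the tail gene Odf1. They were chosen by name, as rows whose RefSeq transcript carries 1 of these 8 symbols, and all 8 were found, with 1 row each among 25631 rows of the table. The arrays measured total RNA of whole mouse testes taken at postnatal day 9. The samples were 3 Dmrt1 KO arrays with NGN-cre, 1 Cre-negative control array that also carries the NGN-cre label, and 1 Dmrt1 KO array with DHH-cre. All knockout samples were Cre-positive and all 5 were male. Dmrt1 encodes a DM-domain transcription factor, and its conditional deletion depends on where each Cre driver is active, which the labels do not state. No strain, litter or further allele is given for either group, and the control array is the only sample without the deletion.

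In haploid spermatids, histones are first replaced by transition proteins and then by protamines, small arginine-rich proteins that pack the DNA of the sperm head. Over the same period the Golgi apparatus gives rise to the acrosome, a vesicle that carries enzymes and membrane proteins for fertilisation, and the tail is assembled around the axoneme. Many of these genes are transcribed in round spermatids, and some acrosome genes already in spermatocytes. In the first wave of mouse spermatogenesis, spermatids appear later than the juvenile age sampled here, when spermatogonia and early meiotic cells make up the germ line. The 8 genes were thus read in testes in which spermatids are normally not yet found.

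In the control the intensity of Dmrt1, the deleted gene, was 11847, and it was 4884, 5644 and 5509 on the NGN-cre arrays and 6416 on the DHH-cre array. The NGN-cre mean of Dmrt1 differed by -1.15 on the log2 scale (SE 0.22), lower in 3 of 3 arrays, which did not pass over all rows (limma, Benjamini-Hochberg adjusted p = 0.281). Median intensities lay between 721 and 730 over all rows. The DHH-cre array stood apart, with correlations of 0.974 to 0.981 to the other arrays against 0.986 to 0.993 among the rest, and its array number in the labels is also far from theirs, so an effect of the array and of the deletion cannot be told apart. Germ cell, Sertoli cell and Leydig cell markers (4, 6 and 4 genes) were all above the upper olfactory receptor level, defined below, on all 5 arrays. Whether the NGN-cre samples are separate animals is not in the labels, and p-values cover no more than their spread, which may be technical.

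The level of transcripts hardly made in testis was read from 1064 rows of olfactory receptor genes, whose products serve the sense of smell. Their median log2 intensity lay between 5.16 and 5.30 on the 5 arrays and their 95th percentile between 8.13 and 8.47. Of the 40 values of the 8 genes, 40 lay above the olfactory receptor median of their array and 4 above the 95th percentile. All 4 were knockout values of Spaca1. The other 7 genes were below the 95th percentile on every array, whereas between 60.2% and 63.5% of all rows lay above it. Against the 95th percentile of 140 vomeronasal receptor rows, which lay lower at 7.02 to 7.30, 17 of the 40 values were above. Intensities of different rows come from different probes, so they are set against this common level and not against each other.

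**Figure D1:**
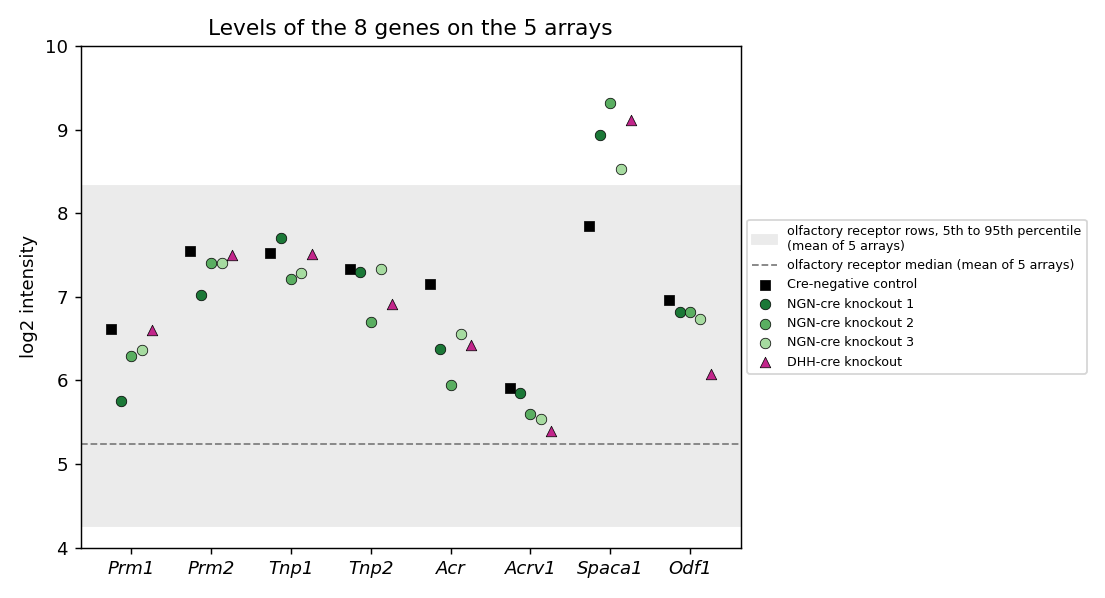
Log2 intensity (vertical axis) of each of the 8 genes on each array, with squares for the control, circles for the 3 NGN-cre knockouts and triangles for the DHH-cre knockout. The grey band spans the 5th to 95th percentile of olfactory receptor rows and the dashed line their median, each averaged over the 5 arrays. The 4 knockout values of Spaca1 are the points above the band.

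Prm1 and Prm2, the protamines proper, lie side by side on chromosome 16 with Tnp2. Prm1 had a log2 intensity of 6.61 in the control, 5.76, 6.29 and 6.36 on the NGN-cre arrays and 6.60 on the DHH-cre array. The control and the DHH-cre array lay above all 3 NGN-cre arrays and next to each other. Prm1 ranked between the 67.0 and 81.0 percentile of olfactory receptor rows. The NGN-cre mean differed from the control by -0.48 on the log2 scale (SE 0.29, 95% interval -1.18 to 0.22; limma, Benjamini-Hochberg adjusted p = 0.776). With 64 added to every intensity before the logarithm this difference was -0.26, and without NGN-cre replicate 1, the lowest array, it was -0.29.

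Prm2 had a log2 intensity of 7.54 in the control, 7.02, 7.41 and 7.41 on the NGN-cre arrays and 7.49 on the DHH-cre array. As for Prm1, NGN-cre replicate 1 was lowest and the control and DHH-cre arrays were highest. The NGN-cre mean stood at -0.26 against the control (SE 0.25, 95% interval -0.86 to 0.34; limma, Benjamini-Hochberg adjusted p = 0.858), and at -0.13 without replicate 1. Neither protamine gene passed the threshold of 0.05 in this comparison.

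The transition proteins take the place of histones before the protamines arrive. Tnp1 had a log2 intensity of 7.53 in the control, 7.70, 7.22 and 7.29 on the NGN-cre arrays and 7.51 on the DHH-cre array. The control and the DHH-cre array both lay inside the NGN-cre range. The NGN-cre mean was -0.13 from the control (SE 0.27, 95% interval -0.76 to 0.51; limma, Benjamini-Hochberg adjusted p = 0.944). It was -0.28 without replicate 1 and -0.034 without replicate 2.

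Tnp2 had a log2 intensity of 7.34 in the control, 7.30, 6.70 and 7.34 on the NGN-cre arrays and 6.92 on the DHH-cre array. Again control and DHH-cre values fell inside the range of the NGN-cre arrays, of which replicate 2 was the lowest. The NGN-cre mean was -0.23 from the control (SE 0.31, 95% interval -0.96 to 0.50; limma, Benjamini-Hochberg adjusted p = 0.908), and it was -0.020 without replicate 2. No array therefore showed either transition protein gene outside the band of olfactory receptor rows, and no difference between groups exceeded the spread between NGN-cre arrays.

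The promoters of the chromatin genes are shown for Prm1 and Tnp1 because both hold a sequence like the cyclic AMP response element, the site known in the mouse to be used by the spermatid activator CREM. Each stretch is the 150 bases before the annotated start, on the minus strand, from RefSeq on GRCm38.p6, with the match to TGANGTCA on either strand in capitals.
Prm1, chr16:10796824-10796973: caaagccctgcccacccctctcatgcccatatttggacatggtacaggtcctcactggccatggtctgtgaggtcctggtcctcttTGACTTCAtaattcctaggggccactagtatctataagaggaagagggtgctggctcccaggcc
Tnp1, chr1:73015900-73016049: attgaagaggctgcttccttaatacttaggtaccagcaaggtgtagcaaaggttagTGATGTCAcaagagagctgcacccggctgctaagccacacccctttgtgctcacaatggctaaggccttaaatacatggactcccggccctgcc
The match begins 64 bases before the start of Prm1 and 94 bases before that of Tnp1. In 250 bases before the start, 7.30% of 17492 protein-coding genes hold this sequence. Promoters were available for 6 of the 8 genes, and these 2 were the ones with a match. The letters TATA, read on the coding strand between 45 and 16 bases before the start, were found in Prm1, Prm2 and Tnp2 and in 7.38% of all these genes. A match of letters does not show that a factor binds there.

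Of the acrosome genes, Acr encodes acrosin, the serine protease of the acrosome. It had a log2 intensity of 7.15 in the control, 6.38, 5.94 and 6.56 on the NGN-cre arrays and 6.42 on the DHH-cre array. The control was above all 4 knockout arrays, and the DHH-cre value lay inside the NGN-cre range. As intensity this was 142.3 in the control, 79.6 ± 16.6 on the NGN-cre arrays (SD, n = 3) and 85.6 on the DHH-cre array. The NGN-cre mean was 1.82-fold below the control (log2 -0.86, SE 0.29, 95% interval -1.55 to -0.17), lower in 3 of 3 arrays, but this did not pass over all rows (limma, Benjamini-Hochberg adjusted p = 0.545). The adjusted p spanned 0.168 to 0.846 under the alternatives, and with 64 added to every intensity the difference was -0.53. Every value of Acr lay below the 95th percentile of olfactory receptor rows, at the 72.2 to 86.2 percentile, so the size of the fold is uncertain.

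Acrv1 encodes SP-10, a protein inside the acrosome. Its log2 intensity was 5.91 in the control, 5.85, 5.60 and 5.53 on the NGN-cre arrays and 5.40 on the DHH-cre array. The control was highest and the DHH-cre array lowest, within a span of 0.51 over all 5 arrays. The NGN-cre mean was -0.25 from the control (SE 0.23, 95% interval -0.80 to 0.31; limma, Benjamini-Hochberg adjusted p = 0.857), and -0.11 with 64 added to every intensity. Acrv1 lay 0.24 to 0.62 log2 units above the olfactory receptor median.

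Spaca1 encodes a membrane protein of the acrosome that mice need to shape the sperm head. It had a log2 intensity of 7.84 in the control, 8.94, 9.32 and 8.53 on the NGN-cre arrays and 9.11 on the DHH-cre array. The control was below all 4 knockout arrays, and it was also the only array on which Spaca1 fell below the 95th percentile of olfactory receptor rows, at the 92.5 percentile against 95.6 to 98.4 in the knockouts. As intensity this was 229.6 in the control, 499.8 ± 134.7 on the NGN-cre arrays (SD, n = 3) and 553.4 on the DHH-cre array. The NGN-cre mean was 2.12-fold above the control (log2 1.09, SE 0.32, 95% interval 0.32 to 1.86), higher in 3 of 3 arrays, yet this did not pass over all rows (limma, Benjamini-Hochberg adjusted p = 0.487). Without NGN-cre replicate 3, the lowest of the knockouts, the difference was 1.29 (adjusted p = 0.0775), the adjusted p spanning 0.0775 to 0.833 under the alternatives. In whole testis, more cells with the transcript and more transcript per cell cannot be told apart.

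The stretch before the Spaca1 start is shown beside those of Prm1 and Tnp1 because it is of another kind, with CG dinucleotides in capitals (RefSeq, GRCm38.p6, minus strand).
Spaca1, chr4:34050066-34050215: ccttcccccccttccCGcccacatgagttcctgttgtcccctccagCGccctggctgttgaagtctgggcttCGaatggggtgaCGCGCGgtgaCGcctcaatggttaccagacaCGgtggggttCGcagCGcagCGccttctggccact
Spaca1 held 13 CG dinucleotides in the 250 bases before its start, against a median of 10 over all 17492 genes. Prm1 and Acrv1 held 0, and Prm2, Tnp1 and Tnp2 held 2 each. The Spaca1 stretch held neither TGANGTCA nor TATA in the windows searched.

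Odf1 encodes a protein of the outer dense fibres that sheathe the axoneme of the sperm tail. Its log2 intensity was 6.96 in the control, 6.82, 6.82 and 6.74 on the NGN-cre arrays and 6.07 on the DHH-cre array. The 3 NGN-cre arrays were within 0.08 of each other and just below the control, and the DHH-cre array was below all of them. The NGN-cre mean was -0.17 from the control (SE 0.21, 95% interval -0.67 to 0.33; limma, Benjamini-Hochberg adjusted p = 0.897), and -0.11 with 64 added to every intensity. The DHH-cre array was 1.65-fold below the NGN-cre mean (log2 -0.72, SE 0.21, 95% interval -1.22 to -0.22), which did not pass (limma, Benjamini-Hochberg adjusted p = 0.146) and became -0.41 with 64 added to every intensity.

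**Figure D2:**
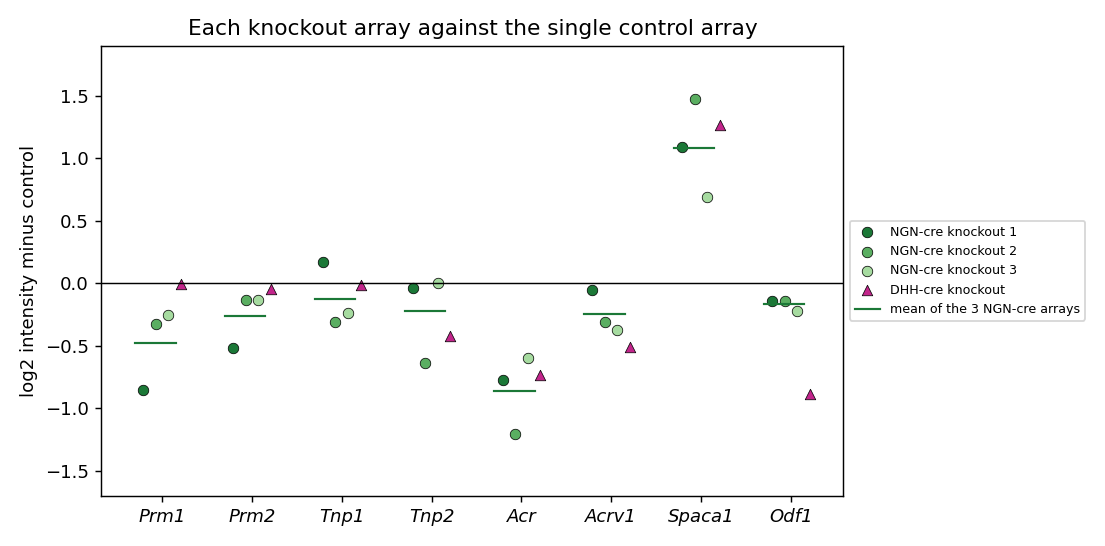
Log2 intensity of each knockout array minus that of the single control array, for the 8 genes. Circles are the 3 NGN-cre knockouts, bars their mean and triangles the DHH-cre knockout. Spaca1 is above 0 on all 4 knockout arrays, Prm1, Prm2, Acr, Acrv1 and Odf1 are below 0 on all 4, and Tnp1 and Tnp2 lie on both sides of 0.

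The first comparison set the NGN-cre knockouts against the control. None of the 8 genes passed, as none of the 25631 rows did (limma, Benjamini-Hochberg, 0%). At an unadjusted p under 0.05 by limma there were 2 of the 8, Spaca1 higher, as 4.65% of all rows, and Acr lower, as 3.21%, with 7.86% of all rows in either direction. The median difference of the 8 genes was -0.24, with 1 higher and 7 lower, beside -0.02 over all rows and -0.05 over olfactory receptor rows. The control lay above all 3 NGN-cre arrays for 5 of the 8 genes, against 28.8% of all rows, and below all 3 for 1, against 25.7%. It lay above all 4 knockout arrays for the same 5 genes, Prm1, Prm2, Acr, Acrv1 and Odf1, against 23% of all rows, and below all 4 for Spaca1, against 19.8%. For Prm1 this rests on a DHH-cre difference of -0.01, which turned to 0.025 with quantile normalization repeated. These counts rest on the single control array, and the smallest p that permuting 3 arrays against 1 allows is 0.25.

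For the DHH-cre knockout against the same control, 1 array stood against 1 and no test was made. A row was counted where its difference reached 2-fold and exceeded the spread from lowest to highest NGN-cre array, as 10.4% of all rows did. By this rule Spaca1 was counted as higher, at 2.41-fold (log2 1.27), as were 5.55% of all rows, and none of the 8 was counted as lower, against 4.81%. Since the control value of Spaca1 lies below the 95th percentile of olfactory receptor rows, the size of this fold is uncertain. The other 7 genes were below the control. Prm1, Tnp1 and Prm2 differed from it by -0.01, -0.02 and -0.05, Tnp2 by -0.42, Acrv1 by -0.51, Acr by -0.73 and Odf1 by -0.89. With quantile normalization repeated, Prm1 and Tnp1 turned to 0.025 and 0.0080, above the control. With 64 added to every intensity, Acr stood at -0.46, Acrv1 at -0.23 and Odf1 at -0.52. This comparison shares its control with the NGN-cre one.

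Between the knockouts, without the control, none of the 8 genes passed, while 1% of all rows did (257 rows, 0.273% higher and 0.73% lower on the DHH-cre array; limma, Benjamini-Hochberg). At an unadjusted p under 0.05 by limma there was only Odf1, lower on the DHH-cre array, as were 9.55% of all rows, with 8.77% higher and 18.3% in either direction. The DHH-cre array lay above all 3 NGN-cre arrays for Prm1 and Prm2, against 33.2% of all rows, and below all 3 for Acrv1 and Odf1, against 32.5%. Spaca1 differed by 0.18 (SE 0.32, 95% interval -0.59 to 0.95; adjusted p = 0.816) and Acr by 0.13 (SE 0.29, 95% interval -0.56 to 0.81; adjusted p = 0.859). Without NGN-cre replicate 3 the Spaca1 difference was -0.016, and without NGN-cre replicate 2 that of Acr was -0.048. Over olfactory receptor rows the SD of differences to the DHH-cre array was 0.467 to 0.549, against 0.349 to 0.415 among the other 4 arrays, so the spread taken from the NGN-cre arrays may be too small here.

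Other genes of the same structures were read from lists by role: spermatid chromatin (9 of 10 listed genes measured), regulators of spermatid genes (13 of 13), acrosome (28 of 35) and tail (28 of 32). Lists of pachytene (11 of 11) and early meiotic genes (11 of 13) gave the preceding stages. None of the 100 genes passed between NGN-cre knockouts and control (limma, Benjamini-Hochberg). At an unadjusted p under 0.05 by limma 11 of them were higher and 1 lower, beside 4.65% and 3.21% of all rows. Between the knockouts 1 of 100 passed, Oaz3, as did 1% of all rows in either direction. It was higher on the DHH-cre array, as were 0.273% of all rows. By the size rule 26 were higher on the DHH-cre array than in the control and 2 were lower, beside 5.55% and 4.81% of all rows. With 64 added to every intensity the count in both directions went from 28 to 25, and neither of the lower ones, H1f7 and Izumo1, reached 2-fold.

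Early meiotic genes had strong signals on every array, and most had higher values in the knockouts, though none passed the test. On all 5 arrays 14482 of 25631 rows were above the 95th percentile of olfactory receptor rows. All 11 early meiotic genes were, among them the germ cell gene Tex15 and the cohesin and axis genes Stag3 and Sycp3. Their median relative to the control was 0.67 on the NGN-cre arrays and 1.48 on the DHH-cre array. For 10 of 11 the control lay below all 4 knockout arrays, against 19.8% of all rows. All these values share the single control array, so the 11 genes are not separate evidence. By the size rule 7 genes of this list were counted as higher on the DHH-cre array, beside 5.55% of all rows. Largest against the control were Msh5 at 2.51, Spo11, which cuts DNA to start recombination, at 2.36, and Msh4 at 2.15, followed by the strand exchange gene Dmc1 at 1.70, Hormad1 at 1.68 and Sycp1 at 1.48. Dmc1 passed for the NGN-cre arrays without replicate 3, the one nearest the control (limma, Benjamini-Hochberg adjusted p = 0.0441), as did 238 of 25631 rows. Leaving an array out also leaves fewer to give the spread. Sycp1 passed with an intensity trend (limma, Benjamini-Hochberg adjusted p = 0.0447), as did 66 rows. Spaca1, too, was above the control on all 4 knockout arrays.

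In the pachytene list, Mybl1, the A-MYB activator of pachytene transcription, differed by 1.53 on the NGN-cre arrays (adjusted p = 0.243) and by 2.73 on the DHH-cre array. Tesmin stood at 1.18 (adjusted p = 0.61) and 3.01, and Tcte3 at 0.92 (adjusted p = 0.549) and 2.30. These 3 of 11 genes were counted as higher by the size rule, beside 5.55% of all rows. The list medians were -0.02 and 0.49. The chaperone genes Hspa2 and Clgn differed by 0.01 and -0.02 on the NGN-cre arrays and by 0.66 and 0.73 on the DHH-cre array. Of the 11 genes in the list, the NGN-cre mean was above the control for 5 and below it for 6. The DHH-cre array was above the control for 8 and below it for 3. Without NGN-cre replicate 3, Mybl1 and Tesmin passed between NGN-cre knockouts and control (limma, Benjamini-Hochberg adjusted p = 0.0302 and adjusted p = 0.0384). That array was the NGN-cre one nearest the control for both, and 238 of 25631 rows passed in this setting.

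Of all 25631 rows, 14482 were above the 95th percentile of olfactory receptor rows on all 5 arrays. Among regulators of spermatid genes this held for 8 of 13. Among these were Taf7l, a germ cell paralogue of a TFIID subunit, the RNA helicase gene Ddx25 and Tdrd7, which differed by 0.36, -0.06 and 0.26 on the DHH-cre array. The size rule counted Sox30, a factor that activates haploid genes, at 2.39 against the control, Ybx2, which binds and stores protamine messenger RNA, at 1.5 and Rfx2, a ciliary and spermatid factor, at 1.29. Sox30 had a log2 intensity of 9.41 in the control, 10.78, 10.57 and 9.17 on the NGN-cre arrays and 11.80 on the DHH-cre array. Its NGN-cre values fell on both sides of the control. By the size rule 3 of 13 genes were higher on the DHH-cre array and 0 were lower, beside 5.55% and 4.81% of all rows. The list medians were 0.18 on the NGN-cre arrays and 0.36 on the DHH-cre array.

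In the chromatin list, Prm3, which lies in the protamine cluster, was far above the olfactory receptor rows, unlike its neighbours Prm1, Prm2 and Tnp2. Its log2 intensity was 10.64 in the control, 10.80, 10.35 and 10.45 on the NGN-cre arrays and 10.31 on the DHH-cre array, and the control lay inside the NGN-cre range. Rnf8, a ubiquitin ligase, and Brdt, a bromodomain reader of acetylated histones, were also above the 95th percentile on all 5 arrays. In this list 4 of 9 genes were above it on all 5 arrays, beside 14482 of 25631 rows. Another 4 were above it on no array, beside 8640 rows. Brdt differed by 0.62 on the NGN-cre arrays (limma, Benjamini-Hochberg adjusted p = 0.545) and by 1.43 on the DHH-cre array. The size rule also counted H2bc1, a testis histone H2B gene, at 1.52 and H1f7, the spermatid linker histone, at -1.01. H2bc1 stood at 1.17 with 64 added to every intensity, and it was above the 95th percentile on 1 of 5 arrays. Of 9 genes 2 were thus counted as higher and 1 as lower, beside 5.55% and 4.81% of all rows. The list medians were 0.05 on the NGN-cre arrays and -0.08 on the DHH-cre array. H1f7 was no longer counted with 64 added to every intensity (-0.72) or with quantile normalization repeated (-0.995).

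Over all 25631 rows, 8640 were below the 95th percentile of olfactory receptor rows on all 5 arrays and 14482 above it on all 5. In the acrosome list, 16 of 28 genes were below it on all 5 arrays and 8 were above it on all 5. Among the latter were Tex101, which encodes a germ cell surface protein, and Agfg1 and Pick1, trafficking genes expressed well beyond the testis. The size rule counted 5 as higher on the DHH-cre array, beside 5.55% of all rows. The 5 were Spesp1 at 1.91, Tex101 at 1.66, Zpbp2 at 1.5, Zpbp at 1.27 and Actrt1 at 1.08. With 64 added to every intensity, Spesp1 stood at 1.01 and Actrt1 at 0.35. The size rule counted 1 as lower, beside 4.81% of all rows. It was Izumo1, the sperm protein that binds the egg receptor, at -1.03, or -0.87 with 64 added. Izumo1 stood at 0.51 on the NGN-cre arrays (limma, Benjamini-Hochberg adjusted p = 0.746). The list medians were -0.01 and 0.12, beside -0.02 and -0.02 over all rows.

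In the tail list 13 of 28 genes were below the 95th percentile on all 5 arrays, beside 8640 of 25631 rows. Another 10 tail genes, beside 14482 rows, were above it on all 5. Odf2, an outer dense fibre gene that also serves centrosomes, and the radial spoke gene Rsph1 were among the latter, and Odf2 differed by 0.01 on the DHH-cre array. Beside 5.55% and 4.81% of all rows, the size rule counted 6 of 28 tail genes as higher and none as lower. Among them were Akap3, an anchoring protein of the fibrous sheath, at 2.50, Rsph1 at 2.15, the sperm calcium channel gene Catsper2 at 1.86, Cabyr at 1.58 and Oaz3 at 1.53. Akap3 had a log2 intensity of 7.53 in the control, 8.98, 9.17 and 7.75 on the NGN-cre arrays and 10.03 on the DHH-cre array, so all 4 knockouts were above the control and replicate 3 only barely. Akap3 passed between NGN-cre knockouts and control without replicate 3, the NGN-cre array nearest the control (limma, Benjamini-Hochberg adjusted p = 0.0374). So did 238 of 25631 rows. The list medians were 0.14 and 0.33.

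Oaz3, an antizyme of haploid germ cells, had a log2 intensity of 8.90 in the control, 9.10, 8.96 and 8.92 on the NGN-cre arrays and 10.43 on the DHH-cre array. The DHH-cre array was alone in being high, 2.71-fold above the NGN-cre mean (log2 1.44, SE 0.22; limma, Benjamini-Hochberg adjusted p = 0.0452). The call was lost without NGN-cre replicate 1 (adjusted p = 0.126), without NGN-cre replicate 2 (adjusted p = 0.064) and with 64 added to every intensity (adjusted p = 0.0628); the adjusted p spanned 0.0207 to 0.126 under the alternatives.

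**Figure D3:**
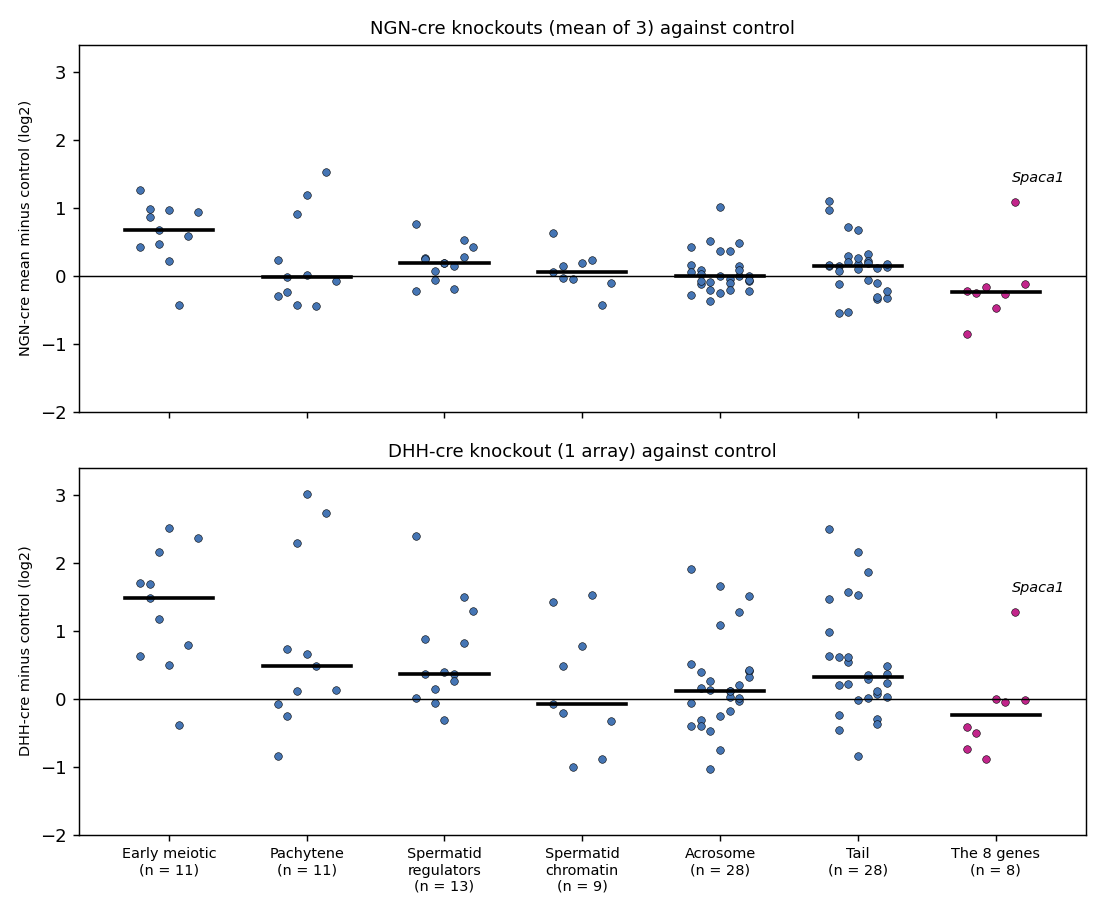
Log2 difference from the control for each gene of the 6 lists and for the 8 genes, for the mean of the 3 NGN-cre knockouts (upper panel) and the single DHH-cre knockout (lower panel). Points are genes and black bars list medians. The early meiotic medians, 0.67 and 1.48, are the highest, and the medians of the 8 genes, -0.24 and -0.23, lie below 0, while Spaca1 itself lies above 0 in both panels.

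Markers of other cells moved with some of these values. The summed intensity of 4 germ cell markers (Ddx4, Dazl, Mael and Tdrd1) was 101970 in the control, 116306 to 127397 on the NGN-cre arrays and 126247 on the DHH-cre array, so it was lowest on the array where Spaca1 was lowest. The sum of 3 measured macrophage markers was 2687 in the control, 4389 to 6271 on the NGN-cre arrays and 4189 on the DHH-cre array, also lowest in the control, with 2 of 3 above the 95th percentile of olfactory receptor rows on all arrays. The sum of 8 epididymis and duct markers was 4681 in the control, 5537 to 6771 on the NGN-cre arrays and 2527 on the DHH-cre array, with 3 of 8 above that level on all arrays. The sum of 6 Sertoli cell markers was lowest on the DHH-cre array (44823 against 45979 to 58356 on the other arrays). The DHH-cre array also had the lowest sums of peritubular (22059 against 26058 to 28356 on the other arrays), endothelial (12605 against 15496 to 18080) and erythroid markers (612.1 against 1110 to 1690). It had the highest sums of Leydig cell (68779 against 45767 to 63023) and granulosa and oocyte markers (1244 against 616.6 to 1046), the latter with 0 of 3 genes above the 95th percentile on all arrays. The part of these cells in the differences of Spaca1, Acr and the list genes was not tested.

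The 8 genes differed in how much they varied. The range over the 5 arrays reached 1 log2 unit for Spaca1 (1.48) and Acr (1.21), and for these the genes with the nearest profile were sought, by the root mean square difference between log2 values centred on each gene's mean over 5 arrays. Nearest to Spaca1 were Xlr (0.08), Ccdc150 (0.09) and Ints6 (0.10). Xlr, an X-linked gene of a multicopy family that includes proteins of the meiotic chromosome axis, had a log2 intensity of 11.44 in the control, 12.60, 12.82 and 12.06 on the NGN-cre arrays and 12.55 on the DHH-cre array. As for Spaca1, the control was lowest, replicate 3 next and replicate 2 highest. Nearest to Acr were Tnfsf4 (0.08), Jph1 (0.08) and Zdhhc18 (0.08), each highest in the control and lowest in NGN-cre replicate 2. Such shared orders follow from how the neighbours were picked. Tnfsf4 was dim, at 5.51 in the control and 4.23 to 4.83 in the knockouts, where it lay below the olfactory receptor median (5.16 to 5.30). With 5 arrays such neighbours are common: 24 genes lay within 0.15 of Spaca1 and 37 within 0.15 of Acr.

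**Figure D4:**
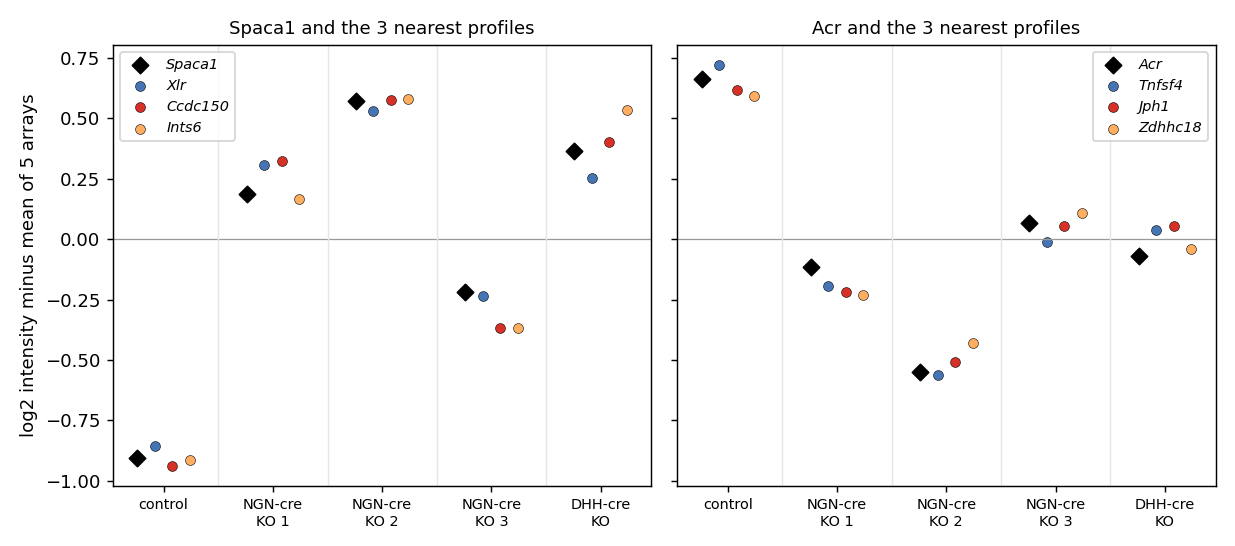
Log2 intensity minus the gene's mean over the 5 arrays, for Spaca1 with Xlr, Ccdc150 and Ints6 (left) and for Acr with Tnfsf4, Jph1 and Zdhhc18 (right). Each point is 1 array. Spaca1 and its neighbours are lowest in the control, and Acr and its neighbours are highest there. The neighbours were picked by these same values.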

How the data were processed

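Total RNA of whole P9 testes was hybridised to single-colour Cy3 NimbleGen arrays, per the labels' protocols. The deposited values are linear intensity values, 1 per transcript identifier and array. Per the submitters' processing notes RMA was used, version not given. RMA equalises arrays, so a change of total RNA cannot be seen, and it compresses differences of dim rows. Depth has no meaning for arrays, and their number limits the precision.

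These intensities were put on a log2 scale, unfiltered and without renormalizing. Identifiers were matched without versions to RefSeq genes of GRCm38.p6 (17780 of 25631 rows named, 17277 symbols), and the brightest row stood for a gene with several. Groups were compared with limma 3.58.1 in R 4.3.3 (lmFit, eBayes, two-sided, Benjamini-Hochberg over all rows, 1 mean per group over 5 arrays, 2 residual degrees of freedom from the NGN-cre arrays, the lone arrays assumed to vary like them). The procedure was tested on simulated data. The genes, lists and tests were chosen with earlier results of these data known. Genes named from a list are its 3 brightest (a rule for names, not a comparison of levels) and at most the 6 largest past the threshold or the size rule, and 1 of them is not reported here. Symbols of cloned cDNAs and predicted genes were left out of the nearest profiles. H1f9 was read as Hils1. Odf1 and Acr had no promoter in the table used. Alternatives were an intensity trend, repeated quantile normalization, 64 added to intensities, a filter on dim rows, each NGN-cre replicate left out, and other reference rows.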

Additional observations from a re-analysis of the deposited data

Results flagged for a closer look

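Oaz3, an antizyme gene of haploid germ cells, differed between the deletions by 1.44 on the log2 scale (SE 0.22; limma, Benjamini-Hochberg adjusted p = 0.0452), higher in the DHH-cre knockout than in 3 of 3 NGN-cre arrays. The adjusted p was 0.126 without replicate 1, 0.064 without replicate 2 and 0.0628 with 64 added to every intensity. Oaz3 was the only gene among the 8 genes and 100 list genes to pass between the deletions in the test as planned. Of all rows 1% passed (257 of 25631). With an intensity trend 12 list genes passed, beside 729 of all rows, and 16 did without replicate 3, beside 1321 of all rows. The DHH-cre side is 1 array whose number in the labels is far from those of the others.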

How the results depend on the processing

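Between NGN-cre knockouts and control, the count of rows past the threshold was 0, 66 with an intensity trend, and 0 to 238 with each NGN-cre replicate left out, 238 without replicate 3. Between the knockouts it was 257, 729 with the trend, 10 with 64 added to every intensity, and 38 to 1321 with a replicate left out, 38 without replicate 1 and 1321 without replicate 3. By the size rule it was 2654 for the DHH-cre knockout against the control and 1667 with 64 added. Of the 100 list genes, 1 passed between the knockouts, 12 with the trend, 0 with 64 added and 0 to 16 with a replicate left out, alternatives chosen after seeing the data. Of 40 values of the 8 genes, 4 were above the olfactory receptor 95th percentile, 17 above that of vomeronasal rows and 40 above the olfactory receptor median. None of the 8 genes passed under any of these alternatives. With quantile normalization repeated, the DHH-cre difference from the control turned to 0.025 for Prm1 and 0.0080 for Tnp1. With a replicate left out, the difference between the knockouts ranged from -0.048 to 0.26 for Acr (negative without replicate 2) and from -0.016 to 0.38 for Spaca1 (negative without replicate 3). With 64 added, the DHH-cre difference from the control moved to -0.23 for Acrv1 and -0.52 for Odf1. Among list genes, the NGN-cre difference from the control ranged from -0.16 to 0.079 for H1f7 (positive without replicate 2), from -0.082 to 0.27 for Spesp1 (negative without replicates 1 and 2) and from -0.30 to 0.33 for Zpbp2 (positive without replicate 3). The cause was not tested. No paired analysis was possible because the labels give no pairs and the control and DHH-cre groups hold 1 array each. The dim level of 7 of the 8 genes limits what their differences can show.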
